A study of Mus musculus with 10 samples.

Results

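The genes described here regulate oxidative and lipid metabolism. They are the PGC-1 coactivators *Ppargc1a* and *Ppargc1b*, the PGC-1 and ERR partner *Perm1*, the estrogen-related receptors *Esrra*, *Esrrb* and *Esrrg*, the PPARs *Ppara* and *Ppard*, the factor *Nrf1* and the corepressor *Nrip1*. These genes were chosen by name for their known roles, with earlier results of these data known, and they make up 10 of the 49315 genes in the count table. All 10 passed the filter on low counts that left 14714 genes for testing. RNA was sequenced from the gastrocnemius of 10 male mice on a C57BL6J background, of which 5 were AHRfl (a floxed *Ahr* gene and no Cre) and 5 were AHRmko (the same floxed gene with muscle Cre). In AHRmko mice the Cre is a MerCreMer fusion under the human ACTA1 promoter, which is active in muscle fibres, so that other cell types of the muscle keep *Ahr*, and it enters the nucleus after tamoxifen. Tamoxifen preceded the smoke, which began 4 weeks after the last injection by the labels, while the study's own descriptions of this interval differ from each other. The labels name only AHRmko mice in that protocol, while the study describes both genotypes as smoked after tamoxifen. Every mouse of both groups had been exposed to cigarette smoke for 16 weeks, in 2 sessions of 1 h on 5 days a week at 220 ± 80 mg/m3, and the muscle was taken 72 h after the last session by the series' description, the upper end of a range in the study's text. No library from an air-exposed mouse was analysed here, and the labels give neither ages nor litters, so p-values measure the spread between these individual mice. The comparison of the genotypes asks how loss of the aryl hydrocarbon receptor (AHR) in the fibres changes transcripts in smoke-exposed muscle.

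PGC-1 coactivators bind no DNA themselves. They are recruited by nuclear receptors such as the ERRs and PPARs and by NRF1, and they raise transcription of the genes for oxidative phosphorylation, the citric acid cycle and fatty acid oxidation. PERM1 is a muscle protein induced by PGC-1 and ERR that supports the same programme, and NRIP1 (RIP140) is a corepressor that opposes it. In skeletal muscle this network is known for setting mitochondrial content, and it is more active in oxidative than in glycolytic fibres.

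The targeted gene was low in all libraries, with between 43 and 110 counts of *Ahr* in AHRfl and between 31 and 80 in AHRmko mice. Its log2 fold change, AHRmko minus AHRfl, was -0.35 (95% interval -0.90 to 0.20), so the counts over the whole gene do not separate the groups. *Esr1*, whose sequence is part of the Cre fusion, had between 544 and 658 counts in AHRfl and between 9770 and 24975 in AHRmko mice, each AHRmko library far above each AHRfl library. Total counts were between 30393035 and 36500548 in AHRfl and between 35038167 and 37954388 in AHRmko mice, and a floor of 3 counts is between 0.079 and 0.0987 CPM (counts scaled by library size), which covers counting error only. The Y-linked *Ddx3y* had at least 1852 counts in every mouse, while *Xist*, which is transcribed in female cells, had at least 44 counts in 5 libraries (3 AHRfl and 2 AHRmko) and at most 3 in the other 5. In all 10 mice the 8 myofibre markers were abundant, and the muscle was mainly fast, with a mean of the fast-fibre markers between 13.19 and 13.46 on the log2 CPM scale. The mean of 8 slow-fibre markers (*Myh7*, *Tnnt1*, *Tnni1*, *Tnnc1*, *Myl2*, *Myl3*, *Tpm3* and *Atp2a2*), called the slow-fibre score here, ran from 2.42 in AHRfl mouse 12 to 7.97 in AHRmko mouse 8. The score was 5.13 ± 2.25 (SD, n = 5) in AHRfl and 6.05 ± 1.74 (SD, n = 5) in AHRmko mice and overlapped widely (exact permutation test, two-sided, p = 0.468). The study's methods state that red parts of the gastrocnemius were dissected for other assays, and the fibre make-up of the pieces sequenced was not recorded in the labels.

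Of the members, 7 have a promoter with a motif of a factor under study, the AHR response element core (XRE core, GCGTG) or the ERR half-site (AAGGTCA). Of these 3 are shown, chosen after their values were seen, *Esrra* and *Nrip1* for the smallest unadjusted p of the 10 and *Perm1* as the only one with the half-site. RefSeq has 2 windows for *Nrip1*. The one shown lies inside the gene as GENCODE draws it, and the outer one (chr16:76373828-76374077) holds 0 XRE cores. The sequences are RefSeq's for GRCm38.p6, 5′ to 3′ on the strand of the gene, and run from 250 to 91 bases upstream of the annotated start. Capitals mark the motif, on either strand, in *Esrra* (chr19:6921899-6922058, minus strand), *Nrip1* (chr16:76373140-76373299, minus strand) and *Perm1* (chr4:156215677-156215836, plus strand).
Esrra: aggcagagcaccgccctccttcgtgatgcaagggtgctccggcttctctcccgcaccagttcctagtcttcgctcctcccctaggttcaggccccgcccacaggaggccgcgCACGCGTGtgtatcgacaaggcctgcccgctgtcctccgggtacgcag
Nrip1: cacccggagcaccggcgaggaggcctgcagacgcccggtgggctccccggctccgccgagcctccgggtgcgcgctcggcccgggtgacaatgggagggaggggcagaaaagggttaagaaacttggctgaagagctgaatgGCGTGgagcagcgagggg
Perm1: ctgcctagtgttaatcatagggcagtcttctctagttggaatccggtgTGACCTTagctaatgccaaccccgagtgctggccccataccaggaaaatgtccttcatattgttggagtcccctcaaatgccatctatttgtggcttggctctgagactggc

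The *Esrra* stretch holds 2 overlapping XRE cores on opposite strands, which start 138 and 135 bases upstream. In *Nrip1* a single core starts 108 bases upstream, and in *Perm1* the ERR half-site starts 202 bases upstream, read on the opposite strand. Over the full 250 bases, an XRE core was in a window of 6 of the 9 members that have one (*Esrra*, *Esrrg*, *Nrf1*, *Nrip1*, *Ppara* and *Ppard*), or 7 of their 15 windows, against 28.2% of all 32851 windows. The ERR half-site was in 1 of the 15 windows (*Perm1*), against 4.08% of all windows. The NRF1 site (GCGCA and GCGC, 1 base apart) was also in 1 of the 15 (*Ppara*), against 3.74% of all. A match describes these letters only and was not tested as a binding site.

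None of the 10 genes had an adjusted p under 0.05 between AHRmko and AHRfl muscle (quasi-likelihood test of edgeR, Benjamini-Hochberg over all genes), where 1 of all 14714 genes (*Esr1*), or 0.0068%, passed. With the DESeq2 Wald test the count of members was also 0, against 0.193% of the 10858 genes with an adjusted p, and with limma-voom it was 0 as well, against 0.0068% of all genes. At an unadjusted p under 0.05 the count was 1 of 10 (*Esrra*) in edgeR, against 6.61% of all genes (3.38% lower and 3.23% higher in AHRmko). It was 1 in DESeq2, against 6.75% of the same 14714 genes (3.62% of all 31833 genes with a p there), and 2 in limma-voom (*Esrra* and *Nrip1*), against 6.94%. The mice of the groups overlapped in every member, while they did not overlap in 1.4% of all genes. The point estimate was lower in AHRmko for 6 members and higher for 4, and the median log2 fold change over all genes tested was 0.0056. In bulk RNA, fewer cells of a type and less RNA per cell cannot be told apart, and counts per gene do not separate isoforms.

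**Figure D1:**
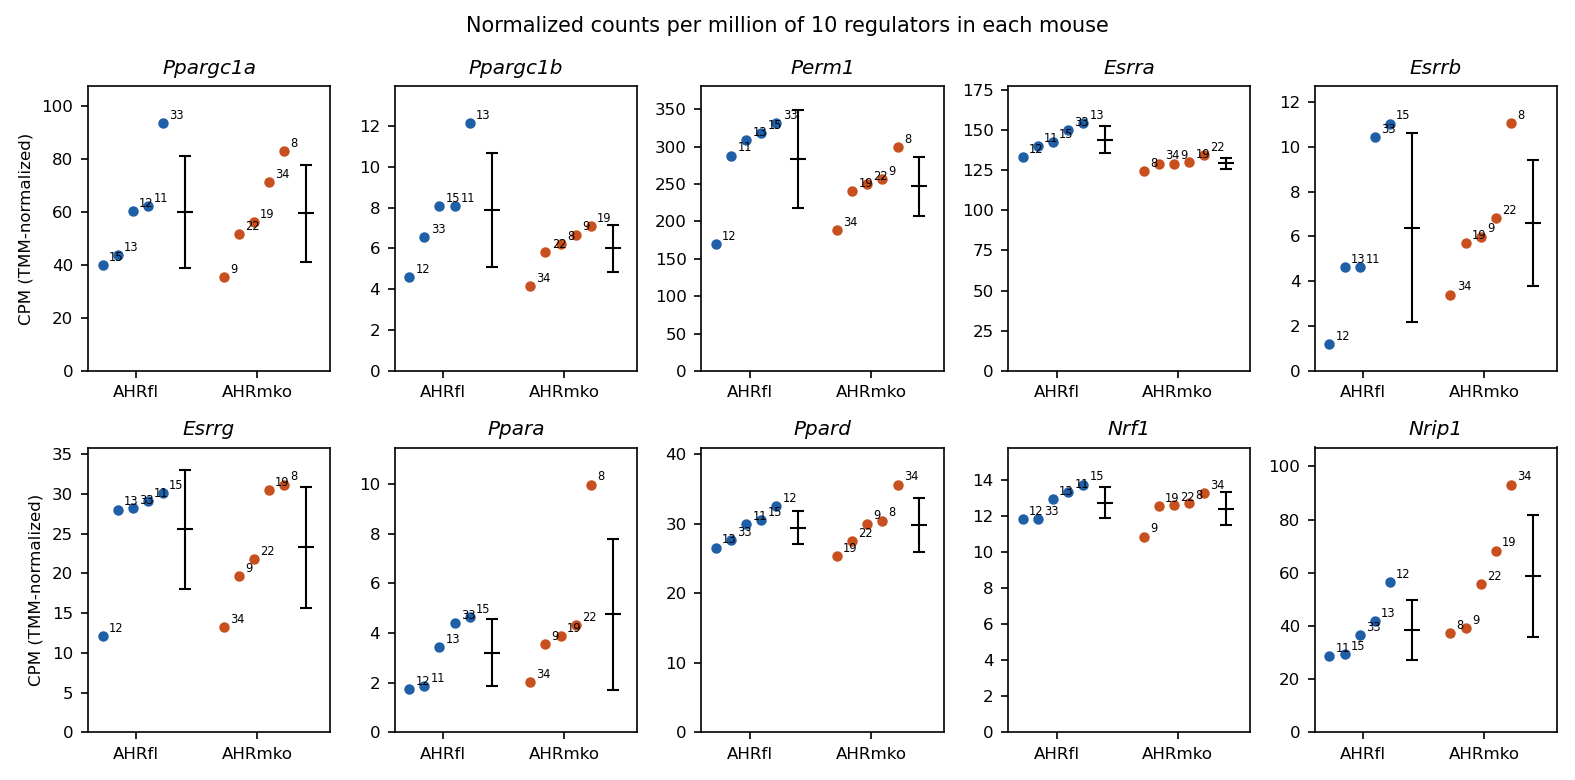
Normalized CPM of each regulator (vertical axis, from 0) in 5 AHRfl mice (blue) and 5 AHRmko mice (orange), with animal numbers beside the points, and the mean with its SD as a black bar to the right of each group. The groups overlap in every panel, and Esrra comes nearest to separating, with 4 of 5 AHRmko mice below the lowest AHRfl mouse.

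Among the coactivators, *Ppargc1a* (ENSMUSG00000029167, chr5:51454250-51567726 of GRCm38, minus strand), which encodes the exercise- and fasting-inducible PGC-1α, had the same mean in both genotypes. AHRfl mice 11, 12, 13, 15 and 33 had 62.3, 60.4, 43.8, 40.1 and 93.6 CPM. AHRmko mice 8, 9, 19, 22 and 34 had 82.9, 35.5, 56.4, 51.6 and 71.3 CPM. AHRmko mouse 9 was the lowest and AHRfl mouse 33 the highest of the 10, and each genotype spanned most of the range. The means were 60.0 ± 21.2 CPM (SD, n = 5) in AHRfl and 59.5 ± 18.3 CPM (SD, n = 5) in AHRmko muscle. On the log2 scale the difference was -0.01 (SE 0.281, edgeR adjusted p = 0.998), and its 95% interval, from -0.65 to 0.62, allows a ratio between 0.639 and 1.54. A genotype difference within those limits was not detectable with these mice.

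*Ppargc1b* (ENSMUSG00000033871), which encodes PGC-1β, a coactivator of ERRs expressed in oxidative tissues, had a lower mean in AHRmko muscle that did not pass the test. AHRfl mice had 8.07, 4.59, 12.1, 8.07 and 6.55 CPM, in the order of animals given above. AHRmko mice had 6.20, 6.67, 7.11, 5.84 and 4.16 CPM. AHRfl mouse 13 stood above all others, and AHRmko mouse 34 was the lowest. This gave a log2 fold change of -0.39 (SE 0.226, 95% interval -0.89 to 0.10, edgeR adjusted p = 0.811). Without AHRfl mouse 13 it was -0.19, and without AHRfl mouse 12 it was -0.54 (edgeR unadjusted p = 0.0121, adjusted p = 0.66).

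*Perm1* (ENSMUSG00000078486, chr4:156215868-156221307, plus strand) was at 288, 169.3, 308.6, 317.6 and 331.4 CPM in AHRfl mice 11, 12, 13, 15 and 33. In AHRmko mice 8, 9, 19, 22 and 34 it was at 299.3, 256.3, 240.6, 250 and 188.1 CPM. Apart from mouse 12, the AHRfl mice were all at or above 288 CPM, and 4 of 5 AHRmko mice were below that. With mouse 12 included, the means were 283 ± 65.5 CPM (SD, n = 5) in AHRfl and 247 ± 39.8 CPM (SD, n = 5) in AHRmko muscle. AHRmko differed by -0.20 on the log2 scale (SE 0.174, 95% interval -0.58 to 0.19, edgeR adjusted p = 0.879). Without AHRfl mouse 12 it was -0.34 (unadjusted p = 0.0078, adjusted p = 0.659), and without AHRmko mouse 34 it was -0.11. With 1 surrogate variable it was -0.26 (95% interval -0.48 to -0.05, edgeR unadjusted p = 0.0213, adjusted p = 0.442). With the slow-fibre score in the fit it was -0.28 (95% interval -0.59 to 0.04, edgeR adjusted p = 0.709). For this and the other genes these 2 fits are not separate checks. The surrogate variable was highest in AHRfl mouse 12 (0.57) and lowest in AHRmko mouse 8 (-0.44), the mice with the lowest and highest slow-fibre score.

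Of the receptors, *Esrra* (ENSMUSG00000024955, chr19:6910977-6921813, minus strand), which encodes ERRα, the main partner of PGC-1 on mitochondrial genes, had the smallest unadjusted p among the 10. AHRfl mice had 139.9, 133.0, 154.3, 142.7 and 150.04 CPM. AHRmko mice had 124.5, 129.1, 129.9, 134.2 and 129.1 CPM. All AHRmko mice but mouse 22 were below the lowest AHRfl mouse, mouse 12. The means were 144 ± 8.40 CPM (SD, n = 5) in AHRfl and 129 ± 3.42 CPM (SD, n = 5) in AHRmko muscle, a log2 fold change of -0.15 (SE 0.0585, 95% interval -0.28 to -0.03). In edgeR the unadjusted p was 0.0201 and the adjusted p 0.665, and a two-sided exact permutation test gave p = 0.0159, where the smallest p that 5 mice against 5 allow is 0.00794. The estimate stayed between -0.18 and -0.13 when each mouse was left out, and between -0.17 and -0.15 in the other settings tried. Without AHRfl mouse 13 the edgeR unadjusted p of *Esrra* was 0.062, and the 95% interval, from -0.27 to 0.0076, included 0. *Esrra* shares 73 exon bases (1.66% of its exons) with *Trmt112* on the opposite strand and 91 (2.07%) with *Mir6990* on its own strand, and whether the library kept strand is not stated, so reads shared with *Trmt112* cannot be assigned.

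*Esrrb* (ENSMUSG00000021255, chr12:86361117-86521628, plus strand), the ERR best known from pluripotent cells, varied more between mice, by its coefficient of variation, than any other member except *Ppara*. AHRfl mice had 4.63, 1.21, 4.63, 11.04 and 10.4 CPM. AHRmko mice had 11.1, 5.996, 5.71, 6.81 and 3.41 CPM. AHRfl mouse 12 was lowest, and AHRfl mice 15 and 33 and AHRmko mouse 8 were together at the top. Its log2 fold change was 0.05 with a 95% interval from -1.15 to 1.25. Adding the slow-fibre score to the fit gave -0.08, and limma-voom gave 0.34, as did a covariate for the presence of *Xist* counts, chosen after seeing the data.

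*Esrrg* (ENSMUSG00000026610, chr1:187608791-188214885, plus strand), whose product ERRγ is enriched in oxidative muscle, was near 30 CPM in most mice. AHRfl mice had 29.1, 12.2, 28.04, 30.1 and 28.3 CPM. AHRmko mice had 31.2, 19.7, 30.5, 21.8 and 13.3 CPM. Mouse 12 was far below the other 4 AHRfl mice, and AHRmko mouse 34 was nearly as low. Between the genotypes the log2 fold change was -0.13 (95% interval -0.79 to 0.53), and -0.31 without AHRfl mouse 12. Without AHRmko mouse 34 its direction turned, to 0.015. It was -0.27 with the slow-fibre score in the fit and -0.22 with 1 surrogate variable.

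*Ppara* (ENSMUSG00000022383, chr15:85734983-85802819, plus strand), the receptor of the fasting response, was at 1.88, 1.73, 3.44, 4.63 and 4.39 CPM in AHRfl mice. In AHRmko mice it was at 9.98, 3.55, 3.88, 4.31 and 2.03 CPM, so that mouse 8 alone lay above the AHRfl range. The fitted log2 fold change was 0.57 (95% interval -0.39 to 1.52, edgeR adjusted p = 0.849), and without AHRmko mouse 8 it was 0.10. It was 0.28 with the slow-fibre score in the fit and 0.31 with 1 surrogate variable.

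*Ppard* (ENSMUSG00000002250, chr17:28232700-28301474, plus strand), the PPAR that is expressed in most tissues, varied little. It was at 29.4 ± 2.36 CPM (SD, n = 5, from 26.5 to 32.5) in AHRfl and at 29.8 ± 3.84 CPM (SD, n = 5, from 25.3 to 35.6) in AHRmko muscle. Its log2 fold change of 0.02 had a 95% interval from -0.18 to 0.21, which allows a ratio between 0.885 and 1.16. *Nrf1* (ENSMUSG00000058440, chr6:30047988-30153458, plus strand) encodes nuclear respiratory factor 1, which binds promoters of nuclear genes for the respiratory chain, and must not be taken for the similarly named oxidative stress factor. It was at 12.7 ± 0.870 CPM (SD, n = 5) in AHRfl and 12.4 ± 0.905 CPM (SD, n = 5) in AHRmko muscle, with a log2 fold change of -0.04 (95% interval -0.21 to 0.13). These 2 genes and *Esrra* had the narrowest intervals of the 10.

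The corepressor *Nrip1* (ENSMUSG00000048490, chr16:76287400-76373827, minus strand) had the largest point estimate. AHRfl mice had 28.7, 56.5, 41.8, 29.6 and 36.4 CPM. AHRmko mice had 37.3, 39.3, 68.4, 55.9 and 93.1 CPM. AHRmko mice 19 and 34 were above every AHRfl mouse, and AHRfl mouse 12, the highest of its genotype, lay among the AHRmko mice. AHRfl muscle had a mean of 38.6 ± 11.4 CPM (SD, n = 5) and AHRmko muscle of 58.8 ± 23.0 CPM (SD, n = 5). This is a log2 fold change of 0.61 (SE 0.290, 95% interval -0.05 to 1.26, edgeR unadjusted p = 0.0655, adjusted p = 0.776), and the two-sided exact permutation test gave p = 0.111. Leaving out AHRmko mouse 34 lowered it to 0.38 and leaving out AHRfl mouse 12 raised it to 0.78. With the slow-fibre score in the fit it was 0.73 (edgeR unadjusted p = 0.035, adjusted p = 0.626). It was 0.69 with 1 surrogate variable (edgeR unadjusted p = 0.00621, adjusted p = 0.3) and 0.57 in limma-voom (unadjusted p = 0.0436, adjusted p = 0.702). The estimate of *Ppara* was larger than that of *Nrip1* without AHRmko mouse 34 (0.76 against 0.38) or AHRmko mouse 19 (0.63 against 0.55). It was also larger without AHRfl mouse 15 (0.74 against 0.52) or AHRfl mouse 33 (0.70 against 0.59), and with the *Xist* covariate (0.57 against 0.51).

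**Figure D2:**
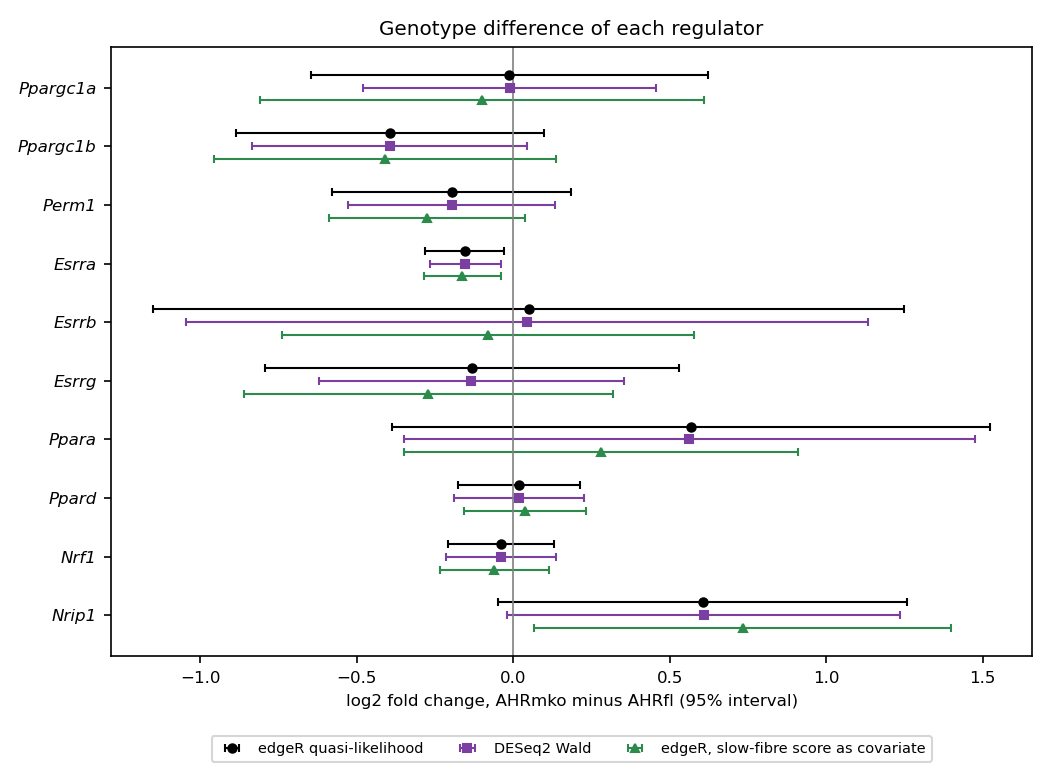
Log2 fold change of each regulator (horizontal axis, AHRmko minus AHRfl, with 95% intervals) from edgeR, from the DESeq2 Wald test and from edgeR with the slow-fibre score in the fit. Without the score, all edgeR intervals include 0 except that of Esrra, from -0.28 to -0.03, which is not adjusted for the number of genes.

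Levels of the genes were compared per kilobase of exon (CPM per kb), as means over the 10 mice. *Perm1* was highest at 67.9 ± 14.0 CPM per kb (SD, n = 10), followed by *Esrra* at 31.2 ± 2.23 and *Ppargc1a* at 9.07 ± 2.83. The lowest mouse for *Perm1* (43.4) was above the highest for *Esrra* (35.2), and the lowest for *Esrra* (28.4) was above the highest for *Ppargc1a* (14.2). Per kilobase of the longest transcript, *Perm1* and *Esrra* overlapped, since *Esrra* then ran from 50.03 to 62.0. Next came *Nrip1* (4.25), *Ppard* (3.94) and *Esrrg* (3.93), which did not differ beyond their spread. *Nrip1* overlapped *Ppargc1a*, since its highest mouse (8.13) was above the lowest for *Ppargc1a* (5.38). By the longest transcript *Ppard* (6.80 to 9.55) also overlapped *Ppargc1a* (5.49 to 14.5). *Ppargc1b* (1.74), *Nrf1* (1.22), *Esrrb* (1.07) and *Ppara* (1.04) had the lowest means and could not be put in order. *Ppargc1b* ran from 1.04 to 3.04 and overlapped each of the others. The order of the last 7 also depends on the length used, since dividing by the longest transcript instead of all exons moves *Ppard* to 7.94, *Nrip1* to 6.19 and *Nrf1* to 3.11, and *Esrra* to 54.9. ERRα transcripts were thus the most abundant of the 3 ERRs by either length, and those of *Ppara* were below those of *Ppard*.

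The 10 genes differed widely in how constant they were. The coefficient of variation of CPM over the 10 mice was 6.81% for *Nrf1*, 7.17% for *Esrra* and 10.2% for *Ppard*, below the median of 14.9% over all genes tested. *Perm1* was at 20.6%, *Esrrg* at 29.5%, *Ppargc1a* at 31.2%, *Ppargc1b* at 32.2%, *Nrip1* at 41.4%, *Esrrb* at 52.0% and *Ppara* at 59.5%. The highest mouse had 9.13 times the CPM of the lowest for *Esrrb* and 5.77 times for *Ppara*, but only 1.24 times for *Esrra*. Within genotypes, the SD of log2 CPM was higher for *Esrrb* than for 99.0% of the genes tested and higher for *Esrra* than for 2.22%.

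**Figure D3:**
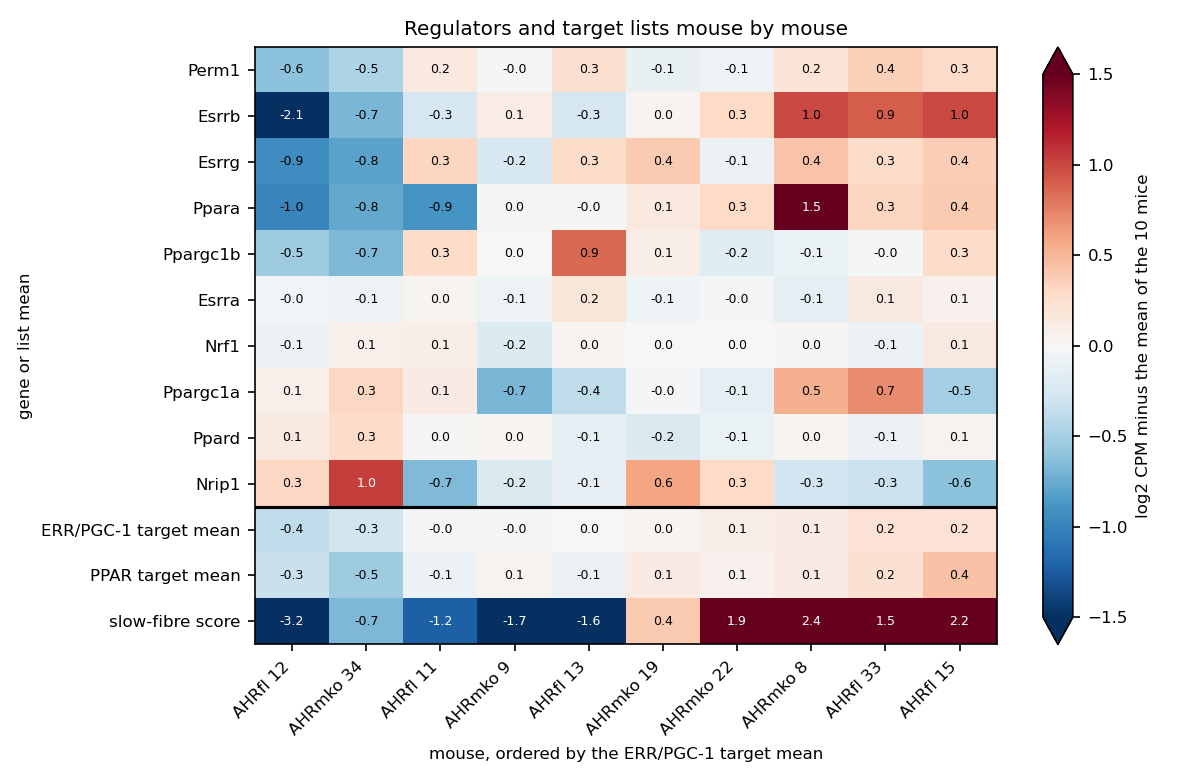
Log2 CPM minus the mean of the 10 mice for each regulator (upper rows) and for the means of the ERR/PGC-1 target list, the PPAR target list and the slow-fibre markers (lower rows), with mice ordered from left to right by the ERR/PGC-1 target mean. AHRfl mouse 12 and AHRmko mouse 34, at the left, are low in Perm1, Esrrb, Esrrg, Ppara and Ppargc1b and above the mean in Nrip1. The colour scale ends at 1.5, and the numbers give the values beyond it.

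Some of the variable genes moved with the slow-fibre score. Of 10 relations to the slow-fibre score over the 10 mice, 2 had an adjusted p under 0.05 (Benjamini-Hochberg over the 10). For *Esrrb* Pearson's r was 0.86 and Spearman's rho 0.83 (permutation test, p = 0.0007 for r, adjusted p = 0.007). For *Ppara* r was 0.79 and rho 0.88 (permutation test, p = 0.00522 for r, adjusted p = 0.0261). Without AHRmko mouse 8 and AHRfl mouse 12, which lie farthest from its median, r fell to 0.76 and 0.65, and neither passed with 8 mice. On deviations from the genotype means r was 0.85 for *Esrrb* and 0.77 for *Ppara*. *Esrrg* (r = 0.59) and *Perm1* (r = 0.57) both had an adjusted p of 0.23 in the permutation test and fell to 0.27 and 0.24 without the same 2 mice. *Ppargc1a* (r = 0.27), *Ppargc1b* (0.05), *Esrra* (-0.03) and *Nrip1* (-0.21) had unadjusted p-values of at least 0.441 in the permutation test. The slow-fibre markers summed to between 94.8 and 2019 CPM in AHRfl and between 252 and 2395 CPM in AHRmko mice, all 8 had point estimates above 0 with a median log2 fold change of 0.42, and 0 of 8 passed the test or had an unadjusted p under 0.05 in edgeR, DESeq2 or limma-voom. Of the 10 fast-fibre markers 8 were also above 0 (median 0.08), and 0 passed. Their mean log2 CPM was 13.28 ± 0.10 (SD, n = 5) in AHRfl and 13.39 ± 0.05 (SD, n = 5) in AHRmko mice (exact permutation test, two-sided, p = 0.0873). The 5 endothelial markers had r = 0.77 with *Esrrb*, 0.71 with *Ppara*, 0.68 with *Perm1*, 0.57 with *Esrrg* and -0.68 with *Nrip1* (descriptions, not tested), and they summed to between 107 and 169 CPM in AHRfl and between 121 and 215 CPM in AHRmko mice. *Nrip1* also had r = -0.68 with the smooth muscle markers, -0.64 with the Schwann cell markers, -0.54 with the fibroblast markers and 0.60 with the myofibre markers. With the fibroblast markers r was 0.65 for *Esrrb* and 0.56 for *Perm1*. With the blood markers it was 0.62 for *Ppara*, 0.56 for *Esrrg* and -0.53 for *Ppard*, and *Ppargc1a* had 0.55 with the macrophage markers (descriptions, not tested). The part of fibre and cell make-up in these relations was not tested.

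Among the 45 pairs of members, 2 had an adjusted p under 0.05 over the pairs by Pearson's r. These were *Perm1* with *Esrrg* (r = 0.90, rho = 0.54, permutation test for r, p = 0.00201, adjusted p = 0.0452) and *Perm1* with *Esrrb* (r = 0.84, rho = 0.66, permutation test for r, p = 0.00175, adjusted p = 0.0452). By rho neither passed (permutation tests, adjusted p = 0.396 and 0.39). The pair that passed by rho was *Esrrb* with *Ppara* (rho = 0.95, adjusted p = 0.00945, against r = 0.81 and adjusted p = 0.0619, permutation tests), and its r was 0.81 without AHRmko mouse 8 and AHRfl mouse 12. The relation of *Perm1* with *Esrrg* rests on AHRfl mouse 12 and AHRmko mouse 34, since r was 0.49 without them. For *Perm1* with *Esrrb* r was 0.69 without AHRmko mouse 8 and AHRfl mouse 12. On deviations from the genotype means 6 pairs passed by r, the others being *Esrrb* with *Esrrg* (0.83), *Esrrb* with *Ppara* (0.82), *Ppara* with *Perm1* (0.79) and *Perm1* with *Nrip1* (-0.77). *Perm1* and *Nrip1* had r = -0.78 and rho = -0.78 before that step (permutation test for r, p = 0.00792, adjusted p = 0.0713), and r was -0.74 without AHRmko mouse 34 and AHRfl mouse 12. *Ppargc1b* had r = 0.75 with *Perm1* and 0.74 with *Esrrg* over the 10 mice (rho = 0.59 and 0.50, permutation tests for r, adjusted p = 0.0772 for both). Without AHRmko mouse 34 and AHRfl mouse 13 these r were 0.75 and 0.81. *Ppargc1a* had r between -0.42 and 0.16, and *Nrf1* between -0.05 and 0.30, with the other 9 genes. The r of *Ppargc1a* was -0.03 with *Perm1*, 0.01 with *Esrrg* and -0.09 with *Esrra*, and without AHRfl mouse 33 and AHRmko mouse 9 these were -0.37, -0.26 and -0.80.

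**Figure D4:**
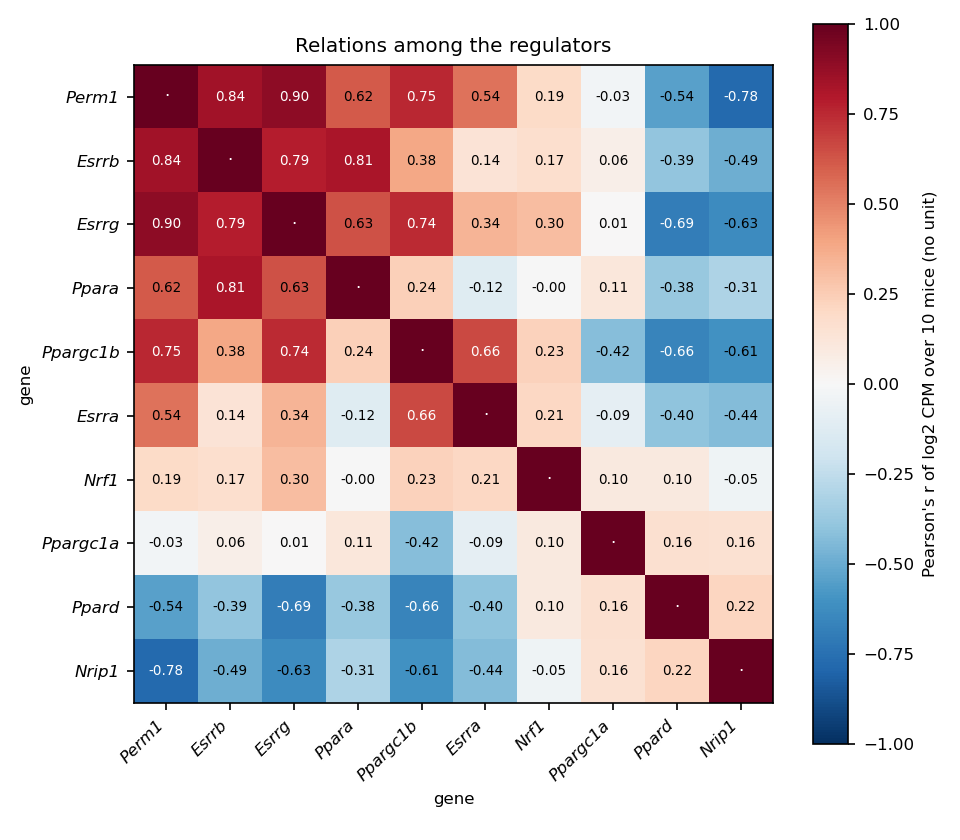
Pearson's r of log2 CPM over 10 mice for every pair of the 10 regulators (both axes list the genes, colour and numbers give r). Perm1, Esrrb, Esrrg and Ppara are positively related with r from 0.62 to 0.90, Nrip1 has r of -0.78 with Perm1, and Ppargc1a has r from -0.42 to 0.16 over the 10 mice.

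The known targets were then set beside their regulators. These 30 relations (10 genes with the means of 3 target lists over the 10 mice, members left out of the means) were chosen after the values had been seen. Of them 7, all positive, had an adjusted p under 0.05 over the 30 by Pearson's r, and the mean of the 25 ERR and PGC-1 targets, mostly genes of the citric acid cycle, respiratory chain and ATP synthase, took part in 4 of them. Its r was 0.95 with *Esrrb* (rho = 0.90, permutation test for r, p = 3e-05, adjusted p = 0.0009), 0.91 with *Perm1* (rho = 0.76, adjusted p = 0.0176), 0.88 with *Esrrg* (rho = 0.68, adjusted p = 0.0344) and 0.76 with *Ppara* (rho = 0.94, adjusted p = 0.0449), all by permutation tests. Without AHRmko mouse 34 and AHRfl mouse 12, r with *Esrrb* was 0.92, but 0.56 with *Perm1*, 0.36 with *Esrrg* and 0.57 with *Ppara*. The other 3 were with the mean of the 25 PPAR targets, mostly genes of fatty acid uptake, storage and oxidation, for which r was 0.82 with *Esrrb*, 0.79 with *Esrrg* and 0.79 with *Perm1* (permutation tests, adjusted p = 0.0344, 0.0393 and 0.0393). Without the same mice these were 0.83, 0.25 and 0.32. By rho 4 of the 7 did not pass, *Perm1* and *Esrrg* with the ERR and PGC-1 targets (permutation tests, adjusted p = 0.0898 and 0.149) and *Esrrg* and *Perm1* with the PPAR targets (adjusted p = 0.102 and 0.149). *Ppara* itself had r = 0.70 and rho = 0.89 with the PPAR targets (permutation test, adjusted p = 0.0986 for r and 0.0087 for rho). On deviations from the genotype means this r was 0.79 and 8 of the 30 relations passed, this one among them (permutation test, adjusted p = 0.0334). *Ppargc1a* had r = -0.03 with the ERR and PGC-1 targets and -0.19 with the PPAR targets, and these values were 0.38 and 0.03 without the same mice. *Nrip1* had -0.60 and -0.65 (permutation tests, adjusted p = 0.157 and 0.134), which were -0.20 and -0.18 without them. *Nrf1* had r = 0.62 with the mean of its own list of NRF1 and GABP factors and targets (permutation test, p = 0.0557, adjusted p = 0.152). The target means share libraries and fibre make-up with the regulators.

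**Figure D5:**
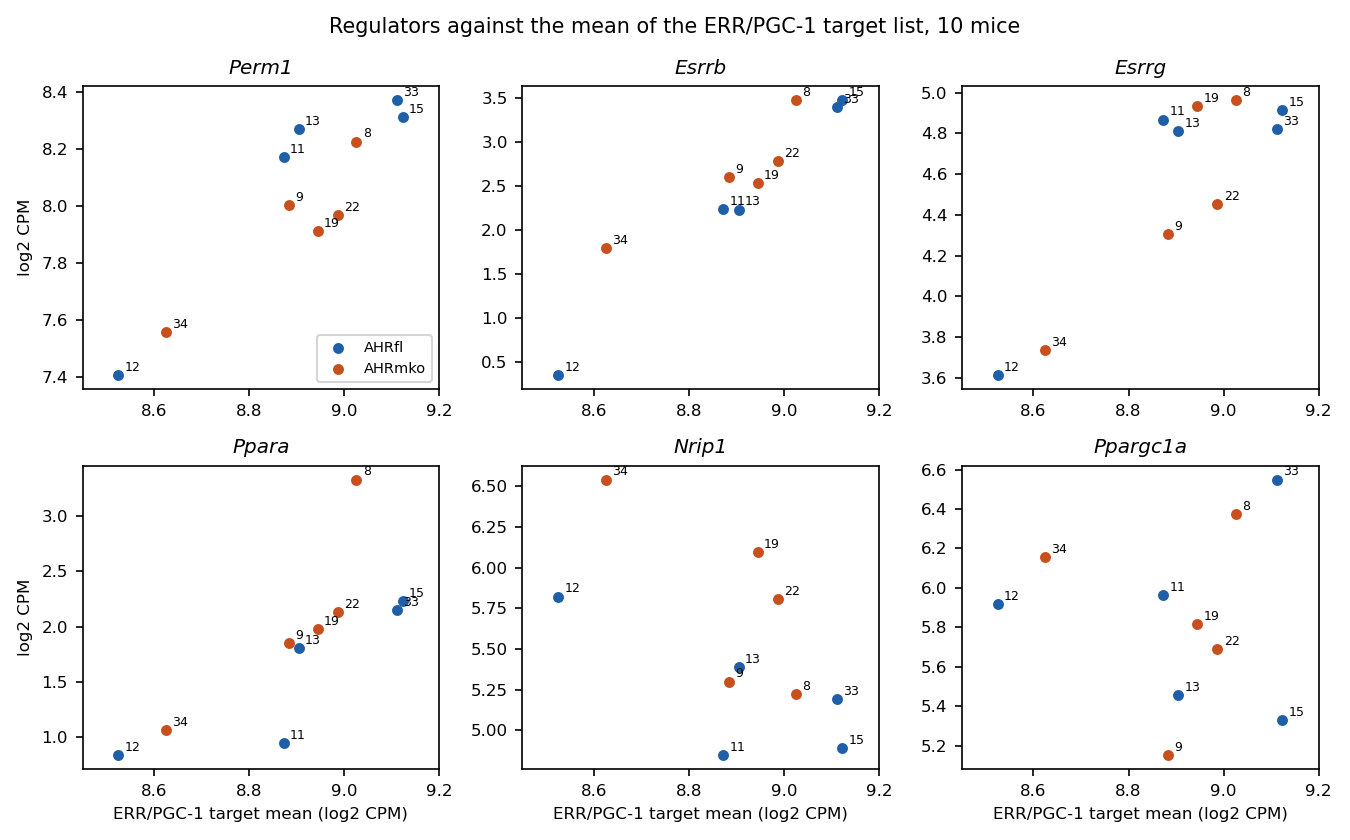
Log2 CPM of 6 regulators (vertical axes) against the mean log2 CPM of the ERR and PGC-1 targets (horizontal axes) in 5 AHRfl mice (blue) and 5 AHRmko mice (orange), with animal numbers. Esrrb follows the target mean over the whole range, Perm1 and Esrrg have their lowest values in AHRfl mouse 12 and AHRmko mouse 34, and Ppargc1a has r = -0.03.

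The other genes of the pathway, taken from 7 lists, were compared between the genotypes. Of 95 genes that are not among the 10, all tested, 0 had an adjusted p under 0.05 and 0 had groups that did not overlap. At an unadjusted p under 0.05, 2 were higher and 3 lower in AHRmko muscle, together 5.26% against 6.61% of all genes in edgeR, and the median log2 fold change of the 95 was -0.0018. DESeq2 and limma-voom also called 0 of the 95, and each had 6 at an unadjusted p under 0.05, against 6.75% and 6.94% of the 14714 genes. The 2 higher genes were *Pprc1*, the third PGC-1 family coactivator (log2 fold change 0.22, adjusted p = 0.697), and *Prkab2*, an AMPK subunit (0.27, adjusted p = 0.707), both with edgeR. *Pprc1* was at 13.8 ± 1.20 CPM (SD, n = 5) in AHRfl and 16.1 ± 1.75 CPM (SD, n = 5) in AHRmko muscle. The 3 lower genes were *Cox5a* of the respiratory chain (-0.23, adjusted p = 0.627), *Mlycd*, which degrades malonyl-CoA (-0.28, adjusted p = 0.665), and *Tomm20* of the mitochondrial import machinery (-0.17, adjusted p = 0.697), in the same test.

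Taken list by list, members included, the PGC-1 family coactivators (4 of 4 tested) had a median log2 fold change of -0.10, with 1 above and 3 below 0. The nuclear receptors and their RXR partners (9 of 9) had a median of -0.02, with 4 above and 5 below 0. *Rxra*, an obligate partner of the PPARs, was at 165 ± 15.6 CPM in AHRfl and 178 ± 19.1 CPM in AHRmko muscle (SD, n = 5 each, log2 fold change 0.11, edgeR adjusted p = 0.852). The coregulators (10 of 10) had a median of 0.05, and *Ncor1*, the corepressor of the PPARs and ERRs, had a log2 fold change of -0.06 (95% interval -0.20 to 0.08). The NRF1 and GABP list (11 of 11) had a median of -0.04, and its most abundant gene per kilobase, *Cycs* (cytochrome c), was at 0.02 (95% interval -0.14 to 0.19). The 21 upstream signals had a median of 0.02, with *Camk2a*, a calcium-activated kinase subunit, at 0.20 (95% interval -0.03 to 0.42).

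The PPAR targets (25 of 25) had a median of -0.02, with 11 above and 14 below 0. *Pdk4*, which blocks pyruvate entry into the citric acid cycle, was at 1093 ± 203 CPM in AHRfl and 914 ± 329 CPM in AHRmko muscle (SD, n = 5 each), a log2 fold change of -0.26 (95% interval -0.77 to 0.25). *Fabp3*, the fatty acid binding protein of oxidative muscle, ran from 155 to 674 CPM in AHRfl and from 161 to 527 CPM in AHRmko mice, with a log2 fold change of -0.03. The ERR and PGC-1 targets (25 of 25) had a median of -0.02, with 9 above and 16 below 0. *Atp5a1*, a subunit of ATP synthase, was at 2245 ± 129 CPM and 2184 ± 149 CPM (SD, n = 5 each), a log2 fold change of -0.04 (95% interval -0.20 to 0.12). *Slc25a4*, the ADP/ATP carrier of muscle, had a log2 fold change of -0.02 (95% interval -0.18 to 0.14). *Mb* (myoglobin) ran from 1024 to 3936 CPM in AHRfl mice and from 1346 to 3050 CPM in AHRmko mice, with a log2 fold change of -0.33 (95% interval -1.11 to 0.45).

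The genes most alike to each member over the 10 mice, by Pearson's r of deviations from the genotype means among 8791 genes with a mean over 5 CPM, are given as a description. Each was picked as among the highest of 8791 values of r, and how high r would run by chance was not tested. For *Perm1* they were *Actn2* (0.98), the Z-disc actinin, *Tmem65* (0.98) and *Smtnl1* (0.97). For *Esrrb* they were *Bdh1*, a ketone body enzyme, *Iqsec2* and *Myoz2*, a Z-disc protein of slow fibres, all at 0.99. *Esrrg* was most like *Ablim1* (0.97), *Nampt* (0.96), the enzyme of NAD salvage, and *mt-Cytb* (0.95), the mitochondrially encoded cytochrome b. *Ppara* was most like *Myhas* (0.96), *Timp4* (0.96) and *Ramp1* (0.95). *Esrra* was most like *Hdac5* (0.94), a class IIa deacetylase that represses MEF2, *Gga2* (0.93) and *Synpo* (0.93). *Nrip1* was most like *Lamp1*, *Kcnq1ot1* and *Nop58*, each at 0.97. The closest gene was *Rap1b* for *Ppargc1a* (0.90), *Hnrnpr* for *Ppargc1b* (0.955), *Ints8* for *Ppard* (0.94) and *Nsun5* for *Nrf1* (0.95).

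The clock was looked at because several of these genes follow the time of day. Of 12 clock genes 0 passed the test in edgeR, DESeq2 or limma-voom, and at an unadjusted p under 0.05 *Per2* and *Tef* were higher and *Nr1d1* was lower in AHRmko muscle, against 6.61% of all genes. *Per2* was at 11.02 ± 2.54 CPM in AHRfl and 19.9 ± 6.42 CPM in AHRmko muscle (SD, n = 5 each, log2 fold change 0.85, edgeR adjusted p = 0.606). The hour of harvest is not in the labels, and its part in the members' values was not tested. Markers of other cell types (adipocyte, endothelial, macrophage, fibroblast, Schwann cell, smooth muscle and blood) gave 0 called genes in the same 3 tests, 0 at an unadjusted p under 0.05 in edgeR and limma-voom, and 1 (the fibroblast gene *Col3a1*) in DESeq2. Point estimates were all above 0 for the 5 blood markers (median log2 fold change 0.51) and the 5 endothelial markers (0.14). They were all below 0 for the 5 Schwann cell markers (-0.21), and the other lists went both ways. Of these lists only *Lep*, at 1 to 27 counts, failed the filter, and none of the other markers was at 0 throughout.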

How the data were processed

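Per the labels and the study's methods, the authors used Trimmomatic 0.36 on paired-end reads of poly(A) RNA, STAR 2.5.2b for mapping to GRCm38, and featureCounts for unique exon reads per Ensembl gene. The Ensembl release is not given in the sources used here, nor is whether the library kept strand, on which counting by strand depended. The authors deposited raw counts per gene, not normalized or pooled, 1 column per mouse, and all columns were used. Names, positions and exon lengths came from GENCODE M21, which holds 49056 of the 49315 identifiers.

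Genotypes were compared with edgeR 4.0.16 in R 4.3.3 (filterByExpr at 10 counts and a total of 15, TMM, quasi-likelihood test with robust estimation, Benjamini-Hochberg over 14714 genes). Log2 CPM used a prior count of 2. Exact permutation tests covered all 252 assignments of 5 and 5 mice, and relations across mice used 100000 permutations. Alternatives included DESeq2 1.42.0, limma 3.58.1 and sva 3.50.0. The fits were tested on simulated data. The 10 genes and all lists were chosen with earlier results of these data known. The genes named are the 10, the 3 most abundant per kilobase of each pathway list or those with an adjusted p under 0.05 or no overlap, and the 3 most alike to each member. From each list only some of these are printed, and *Pprc1*, *Prkab2*, *Cox5a*, *Mlycd*, *Tomm20*, *Per2*, *Tef* and *Nr1d1* were named for an unadjusted p under 0.05 after their values were seen. The fibroblast marker *Col3a1* was named in the same way, for its unadjusted p in DESeq2.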

Additional observations from a re-analysis of the deposited data

Results flagged for a closer look

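Among 20 groups of 5 mice (10 genes in 2 genotypes), 3 held a mouse whose distance to its nearest neighbour, divided by that group's range (both as log2 CPM), was over Dixon's critical value of 0.71, where chance gives about 1 in 20. On the CPM scale the ratios of these 3, in the order below, were 0.885, 0.732 and 0.712, and *Ppara* in AHRmko mouse 8 was also over the value at 0.713. *Esrrg* in AHRfl mouse 12 had a ratio of 0.922, at 12.2 CPM against 28.9 ± 0.938 CPM (SD) in the other 4 AHRfl mice. *Perm1* in the same mouse had a ratio of 0.791, at 169.3 CPM against 311.4 ± 18.2 CPM (SD) in the other 4. This mouse also had the lowest slow-fibre score of the 10, at 2.42, and the lowest mean of the ERR and PGC-1 targets, at 8.53 on the log2 CPM scale. *Nrf1* in AHRmko mouse 9 had a ratio of 0.732, at 10.9 CPM against 12.8 ± 0.320 CPM (SD) in the other 4 AHRmko mice. The 20 groups are not independent, since the same mice enter every gene. *Esrrg* and *Perm1*, both flagged in AHRfl mouse 12, had r = 0.90 over the 10 mice.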

How the results depend on the processing

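None of the 10 genes passed the threshold in any setting tried, a covariate for the presence of *Xist* counts, chosen after seeing the data, included. The number of all genes past the threshold was 1, and it was 21 with the DESeq2 Wald test, 5 with no filter on low counts, 2 with the slow-fibre score in the fit and 1 to 6 when each mouse was left out (6 without AHRmko mouse 34). Of 210 fold changes of the members under alternatives, 193 kept their direction and 17 reversed, in *Ppargc1a*, *Esrrb*, *Esrrg*, *Ppard* and *Nrf1*. *Ppard* was at -2.93e-05 with library size only, and *Esrrb* at -0.0137 with 1 surrogate variable and at -0.0807 when the slow-fibre score was fitted. With each mouse left out, *Ppargc1a* ran from -0.16 to 0.20, *Esrrb* from -0.22 to 0.34, *Esrrg* from -0.31 to 0.015, *Ppard* from -0.054 to 0.074 and *Nrf1* from -0.066 to 0.0057. List medians that crossed 0 were those of the NRF1 and GABP list (-0.065 to 0.0057, the highest without AHRmko mouse 9), the PGC-1 family (-0.22 to 0.034, without AHRfl mouse 33), the nuclear receptors (-0.052 to 0.074, without AHRmko mouse 19), the PPAR targets (-0.086 to 0.073, without AHRfl mouse 15) and the ERR and PGC-1 targets (-0.076 to 0.014, without AHRmko mouse 34). With the *Xist* covariate the last 2 were 0.037 and 0.0025. The number of members related to the slow-fibre score was 2, but 1 with *Myh7* alone as the score and 0 without the 2 mice farthest from its median. There r was 0.759 for *Esrrb* and 0.646 for *Ppara*, and with *Myh7* alone it was 0.734 for *Ppara*. The r of *Esrra* with the score reversed to 0.278 on deviations from genotype means, 0.277 with library size only and 0.106 without the 2 mice, and that of *Ppargc1b* to -0.0411 with *Myh7* alone and -0.222 without the 2 mice. The cause of these shifts was not tested. The study describes the AHRfl mice as littermates of the AHRmko mice, but the labels give no litters, so no analysis paired by litter was possible. Genes under about 5 CPM, such as *Ppara*, are counted with the least precision, and 5 mice a group limit every interval.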
